A study of Mus musculus with 2 samples.

Results

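The 9 genes described here write, maintain or remove DNA methylation: the maintenance methyltransferase Dnmt1 and its recruiting factor Uhrf1, the de novo methyltransferases Dnmt3a and Dnmt3b with their cofactor Dnmt3l, the oxidising enzymes Tet1, Tet2 and Tet3, and Dppa3, also called Stella. They were listed by name for their function, with earlier results of these data known, and matched through their Ensembl identifiers to GENCODE M21 symbols. All 9 were found among the 52366 genes of the deposited table, 23171 of which had at least 1 UMI in the embryos analysed.

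The embryos were mouse pseudoblastocysts, a name for embryos that had formed a cavity and were collected at 96 hours post insemination (hpi) without a check for an inner cell mass (ICM). All came from B6D2F1 oocytes fertilised in vitro with ICR sperm, all had lost the zona pellucida to Actinase E, and no genetic change is described for any stage. The 1C embryos were whole zygotes freed of the zona at 5 hpi, whereas the 2CB, 4CB and 8CB embryos each grew from 1 blastomere isolated at the 2-cell (24 hpi), 4-cell (48 hpi) or 8-cell stage (48 hpi). Each stage was represented by 6 single embryos processed by CEL-Seq2, a method that tags the 3′ end of each captured transcript with an embryo barcode and a unique molecular identifier (UMI), and the parental embryo of each blastomere was not known, so p-values measure the spread between these embryos and sisters may be among them. The 1C and 8CB embryos formed 1 library pool of 12 embryos and the 2CB and 4CB embryos formed the other, so differences between these pairs of stages and differences between pools cannot be told apart, and comparisons within a pool were limited to 8CB with 1C and to 4CB with 2CB. Library depth ran from 70941 to 368348 UMIs per embryo in the first pool and from 132725 to 1507471 in the other. Levels are UMIs per 1000000 UMIs of the embryo (CPM), without scaling by gene length, and were compared between embryos, not between genes. Because each value comes from a whole embryo, fewer cells of a type and less RNA per cell cannot be told apart.

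In mammals, methyl groups are carried mostly by cytosines in CpG dinucleotides. DNMT1, guided by UHRF1 to hemimethylated DNA behind the replication fork, copies the pattern to the new strand, DNMT3A and DNMT3B methylate unmodified sites with DNMT3L as a catalytically inactive partner, and the TET enzymes oxidise methylcytosine. The preimplantation embryo loses much of the methylation inherited from the gametes, keeps it at imprinted regions, and regains it around implantation, when Dnmt3b is known for its expression in the epiblast. Dppa3 is a maternal and pluripotency-associated factor known to protect the maternal genome of the zygote from TET3-dependent oxidation and to interfere with UHRF1.

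Promoter windows of 250 bases before the transcription start were available from RefSeq (GRCm38.p6) for 8 of the members, with 15 starts in all. These windows held between 2 and 51 CpGs, and 11 of the 15 were above the median of 6 CpGs over 32851 windows of the same length, of which 92.1% held at least 1 CpG. Only the windows of Dnmt3b and of the outermost start of Dnmt1 lay wholly before the annotated gene, and they are printed here because both genes differed between the library pools and because they differ widely in CpG number. Sequences run 5′ to 3′ on the strand of the gene, with CpGs in capitals.
Dnmt3b, chr2:153649199-153649448, plus strand: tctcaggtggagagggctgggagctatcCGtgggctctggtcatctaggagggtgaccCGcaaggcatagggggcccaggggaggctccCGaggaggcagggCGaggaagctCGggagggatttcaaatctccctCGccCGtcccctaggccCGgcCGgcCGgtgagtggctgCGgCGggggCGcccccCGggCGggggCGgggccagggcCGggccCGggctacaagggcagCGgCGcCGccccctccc
Dnmt1, chr9:20959889-20960138, minus strand: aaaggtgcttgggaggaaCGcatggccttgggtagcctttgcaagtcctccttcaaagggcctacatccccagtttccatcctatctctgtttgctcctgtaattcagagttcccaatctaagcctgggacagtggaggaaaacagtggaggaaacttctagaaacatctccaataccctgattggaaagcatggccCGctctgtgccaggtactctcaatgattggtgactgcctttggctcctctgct
The Dnmt3b window held 21 CpGs at a GC content of 75.2%, and 16.3% of all windows held as many or more. The Dnmt1 window held 2 CpGs at a GC content of 50.4%, whereas the other starts of Dnmt1 had 26 and 7 CpGs. Methylation itself was not measured, and 3′ counting does not tell which start gave rise to the transcripts.

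Dnmt3b, Dnmt1 and Dnmt3l were higher and Dppa3 was lower in the pool of 2CB and 4CB than in that of 1C and 8CB, whereas Dnmt3a, Uhrf1 and the 3 Tet genes did not pass the test. Dnmt3b showed the widest difference, with a mean level 8.45-fold higher in 2CB and 4CB embryos, followed by Dnmt1 (3.57-fold) and Dnmt3l (2.21-fold), while the mean of Dppa3 was 0.431 times that of the 1C and 8CB embryos. The test was edgeR's quasi-likelihood F test on the UMI counts of all 24 embryos, with Benjamini-Hochberg adjustment over the 5940 genes that passed the filter on low counts and an adjusted p below 0.1 as the threshold. All 9 members passed that filter. Dnmt1 did so through the 2CB and 4CB embryos, since no 1C or 8CB embryo held more than 9 of its UMIs. Its call with the filter is therefore not independent of that pool, and with no filter edgeR still called it (1.76, SE 0.41, adjusted p = 0.000251). The 4 members called, 3 higher and 1 lower, stood against a background of 55.3% of all genes called in this comparison, 31.3% higher and 24% lower, so a call in itself did not set a member apart from other genes. The median log2 fold change was 0.45 over the members and 0.12 over all genes tested.

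**Figure D1:**
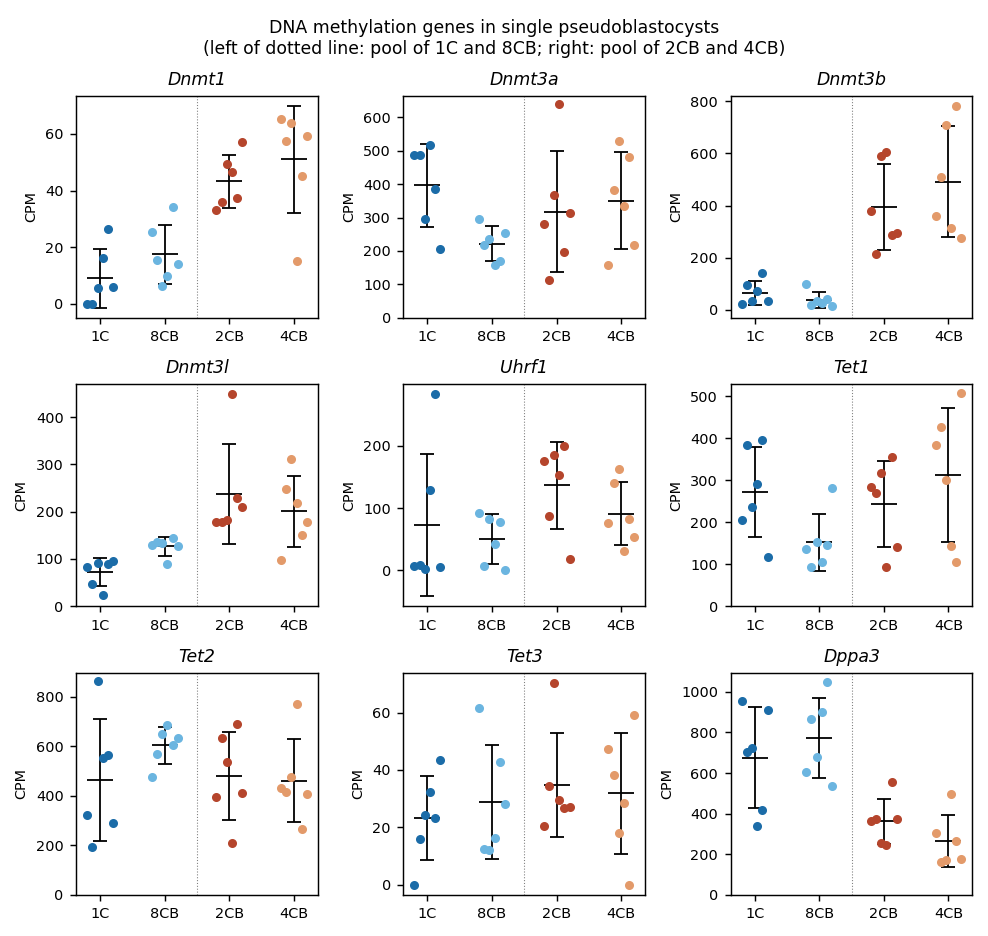
Level of each of the 9 genes in CPM (vertical axes, linear, 1 scale per gene) in the 6 embryos of each stage (points), with the stage mean and SD (bars) and a dotted line between the library pools. Dnmt3b is the gene for which all 2CB and 4CB embryos (213 to 784 CPM) lie above all 1C and 8CB embryos (14.1 to 140.0 CPM).

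Dnmt1 (ENSMUSG00000004099.16, GRCm38 chr9:20907209-20959888, minus strand) was the maintenance enzyme itself, and its RNA was sparse in 1C and 8CB embryos. Its level ranged from 0 to 26.2 CPM in 1C (median 5.60) and from 6.07 to 34.1 CPM in 8CB (median 14.8). It ranged from 33.0 to 57.1 CPM in 2CB (median 41.9) and from 15.0 to 65.2 CPM in 4CB (median 58.4). Of the 12 embryos of the 2CB and 4CB pool, 10 exceeded the highest 8CB embryo, and 4CB replicate 4 was the lowest of them all. The counts behind these levels were small in the first pool, with 15 UMIs over the 1C embryos and 24 over the 8CB embryos against 174 in 2CB and 91 in 4CB. In 1C replicates 1 and 2 no Dnmt1 UMI was counted, which at their depths allows up to 20.6 and 24 CPM for counting error alone. The log2 difference of 2CB and 4CB from 1C and 8CB was 1.81 (SE 0.37, edgeR adjusted p = 0.000188). By stage mean the order was 1C (8.94 ± 10.3 CPM, SD, n = 6), 8CB (17.5 ± 10.4), 2CB (43.2 ± 9.34) and 4CB (51.0 ± 19.0). The step from 8CB to 2CB passed the test (log2 8CB over 2CB of -1.34, SE 0.50, edgeR adjusted p = 0.0422), whereas 8CB against 1C and 4CB against 2CB did not. That call was lost with no filter on low counts (-1.36, adjusted p = 0.107) and without 8CB replicate 3 (adjusted p = 0.119) or 4 (adjusted p = 0.104), and the call of 2CB against 1C was lost when thinned counts were tested on the genes that passed at full depth (1.43, adjusted p = 0.167). The log2 difference of 8CB from 1C, 0.76, became 1.57 without 1C replicate 5 and 2.02 without 1C replicates 4 and 5, and it turned to -0.48 (SE 0.91) in thinned counts of the genes that passed at full depth, past the threshold in none of these.

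Uhrf1 (ENSMUSG00000001228.14, chr17:56303321-56323486, plus strand) encodes the reader of hemimethylated CpGs that brings DNMT1 to them. Its level ranged from 2.71 to 283 CPM in 1C (median 7.44) and from 0 to 92.5 CPM in 8CB (median 59.7). It ranged from 18.0 to 200 CPM in 2CB (median 164) and from 31.0 to 163 CPM in 4CB (median 79.5). The 1C embryos were split, with 4 of them between 2.71 and 8.02 CPM from only 1 or 2 UMIs each. Replicates 4 and 5 were at 129 and 283 CPM, from 16 and 97 UMIs, the latter being the highest of all 24 embryos. The 8CB embryos were also uneven, and replicate 6, the shallowest library, had no UMI, which allows up to 42.3 CPM. The stage means (± SD, n = 6) were 72.6 ± 114 CPM for 1C, 50.01 ± 40.0 for 8CB, 137 ± 70.1 for 2CB and 91.1 ± 51.1 for 4CB. Uhrf1 did not pass the test between pools (log2 fold change 0.81, SE 0.52, edgeR adjusted p = 0.207) or in any pair of stages with all embryos and the filter on low counts. The outcome of the test depended on the embryos and settings used. Without 1C replicate 5 the difference was 1.56 (SE 0.51, edgeR adjusted p = 0.0133), and without replicates 4 and 5 of 1C it was 2.63 (SE 0.51, adjusted p = 0.000106), and with all embryos it was also called with no filter on low counts (0.77, adjusted p = 0.0407) or with the replicate number as a block (1.21, adjusted p = 0.0539). By stage, 2CB against 1C was then called as well, at 2.42 without 1C replicate 5 (adjusted p = 0.0181), 4.58 without both (adjusted p = 0.000166) and 0.97 with no filter (adjusted p = 0.0966). Likewise 4CB against 1C was called without 1C replicate 5 (1.83, adjusted p = 0.0800) or both (3.97, adjusted p = 0.000884), and 8CB against 2CB with no filter (-1.36, adjusted p = 0.0131) or without both (-1.29, adjusted p = 0.0626). The pair of embryos left out held the highest Uhrf1 levels of 1C and was chosen with the data known, so the p-values without it depend on that choice.

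In the same 1C embryos, replicates 4 and 5, Dppa3 was 340 and 420 CPM against 705 to 954 CPM in the other 1C embryos. Dnmt1 was highest in replicate 5, at 26.2 CPM from 9 UMIs, while the 16.2 CPM of replicate 4 came from 2 UMIs and was within what a count of 0 allows in replicates 1 and 2. Dnmt3b was also highest in replicate 5, at 140 CPM from 48 UMIs, while replicate 4, at 72.8 CPM, lay below replicate 2, at 96.2 CPM. The calls that involve these genes did not depend on the pair, since without it the pool differences were 2.41 for Dnmt1 (SE 0.40, edgeR adjusted p = 1.68e-05), 3.32 for Dnmt3b (SE 0.33, adjusted p = 6.05e-09) and -1.43 for Dppa3 (SE 0.21, adjusted p = 2.01e-06).

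Dnmt3a (ENSMUSG00000020661.15, chr12:3806007-3914443, plus strand), a de novo methyltransferase, overlapped between all stages. Its level spanned 205 to 518 CPM in 1C with a median of 436, and 157 to 294 CPM in 8CB with a median of 227. In the other pool it spanned 113 to 639 CPM in 2CB, with a median of 296, and 159 to 528 CPM in 4CB, with a median of 359. The 8CB embryos had the narrowest range and the lowest mean, 222 ± 51.6 CPM (SD, n = 6), beside means of 397 ± 125 CPM for 1C, 318 ± 181 for 2CB and 351 ± 145 for 4CB. Neither the pool difference (log2 fold change 0.16, SE 0.24, edgeR adjusted p = 0.598) nor any pair of stages passed the test, except that 8CB against 4CB was called after thinning to equal depth (-0.72, adjusted p = 0.0975).

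Dnmt3b (ENSMUSG00000027478.15, chr2:153649450-153687730, plus strand), the other de novo methyltransferase, separated the pools without overlap, a pattern found in 3.54% of all genes tested in the direction of higher 2CB and 4CB. Its level ranged from 20.6 to 140.0 CPM in 1C (median 54.1) and from 14.1 to 98.1 CPM in 8CB (median 29.8). It ranged from 213 to 607 CPM in 2CB (median 338) and from 277 to 784 CPM in 4CB (median 435). The pool difference was 3.05 on the log2 scale (SE 0.31, edgeR adjusted p = 5.15e-09), with all 12 2CB and 4CB embryos above all 12 of the others. The order of stage means was 8CB (38.9 ± 30.8 CPM, SD, n = 6), 1C (66.1 ± 46.1), 2CB (395 ± 166) and 4CB (492 ± 214). The neighbours 8CB and 1C (log2 difference -0.63, SE 0.47, edgeR adjusted p = 0.701) and 2CB and 4CB (0.28, SE 0.38, adjusted p = 1.00) did not differ beyond the test's threshold, and the step from 1C to 2CB did (2.59, SE 0.43, adjusted p = 3.29e-05). The difference of 8CB from 1C was -1.22 without 8CB replicate 1 and -0.18 without 1C replicate 5, past the threshold in neither. The promoter window printed above belongs to this gene.

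Dnmt3l (ENSMUSG00000000730.13, chr10:78041947-78063622, plus strand) encodes the partner of the DNMT3 enzymes that lacks catalytic activity. It ranged from 24.3 to 95.2 CPM in 1C (median 86.4) and from 88.4 to 145 CPM in 8CB (median 131). It ranged from 178 to 449 CPM in 2CB (median 196) and from 97.9 to 311 CPM in 4CB (median 198). In their pool, 11 of 12 embryos exceeded the highest 8CB embryo, and 4CB replicate 1 was the exception. The pool difference was 1.15 (SE 0.22, edgeR adjusted p = 0.000109). The order of stage means was 1C (72.1 ± 29.1 CPM, SD, n = 6), 8CB (127 ± 19.8), 4CB (201 ± 75.3) and 2CB (238 ± 105), and no neighbours in this order passed the test: the log2 difference was 0.76 for 8CB against 1C (SE 0.33, edgeR adjusted p = 0.469), -0.63 for 8CB against 4CB (SE 0.31, adjusted p = 0.127) and -0.28 for 4CB against 2CB (SE 0.30, adjusted p = 1.00). The 8CB and 2CB stages did differ (log2 8CB over 2CB of -0.91, SE 0.31, adjusted p = 0.0258), but not without 2CB replicate 4 (-0.58, adjusted p = 0.151) or in thinned counts of the genes that passed at full depth (-0.84, adjusted p = 0.125). The miss of 8CB against 4CB became a call with DESeq2 (adjusted p = 0.0787), with its size factors (0.0934), after thinning (0.0939) and without 4CB replicate 1 (0.0999).

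With Dnmt3a overlapping between the library pools and Dnmt3b separating them, the share of Dnmt3b among the UMIs of both genes was computed in each embryo, a measure added after the data were seen. The share was 13.9% ± 7.48 in 1C (SD, n = 6, range 4.05% to 26.7%) and 14.1% ± 7.39 in 8CB (range 5.26% to 25.0%). It was 56.9% ± 6.88 in 2CB (range 48.5% to 65.2%), whereas 4CB embryos had 58.3% ± 6.91 (range 48.4% to 69.2%). The ranges of the pools did not meet, which largely restates the Dnmt3b levels that prompted the measure and is no separate result. Within the pools the share differed by 0.207 percentage points between 8CB and 1C (exact two-sided permutation test, p = 0.959, adjusted p = 0.959 over both comparisons) and by 1.45 percentage points between 4CB and 2CB (exact permutation p = 0.732, adjusted p = 0.959). The share was compared between embryos only and was not taken as a ratio of transcript numbers.

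**Figure D2:**
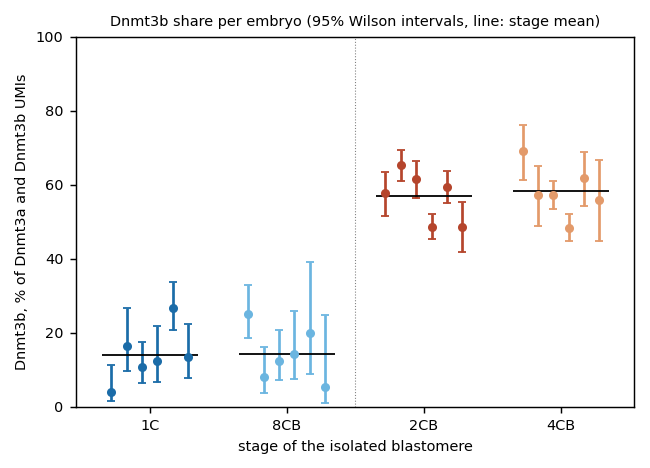
Dnmt3b UMIs as a percentage of Dnmt3a and Dnmt3b UMIs (vertical axis) in each embryo (points, by stage), with 95% Wilson intervals for counting error, horizontal lines at the stage means and a dotted line between the library pools. All 1C and 8CB embryos lie at or below 26.7% and all 2CB and 4CB embryos at or above 48.4%.

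Tet1, Tet2 and Tet3 encode the dioxygenases that oxidise methylcytosine, and none of them differed between the pools past the threshold. Tet1 (ENSMUSG00000047146.16, chr10:62804570-62908996, minus strand) spanned 118 to 397 CPM in 1C with a median of 264, and 93.4 to 282 CPM in 8CB with a median of 141. In 2CB it spanned 92.9 to 354 CPM, with a median of 277, and in 4CB 105 to 507 CPM, with a median of 343. The high 8CB embryo was the shallowest, replicate 6, and the others lay at or below 152 CPM. The pool difference was 0.45 (SE 0.26, edgeR adjusted p = 0.152), and it passed the threshold when 2CB replicate 4 (0.51, adjusted p = 0.0903) or 4CB replicate 5 (0.51, adjusted p = 0.0889) was left out. Of the pairs of stages only 8CB against 4CB was called (log2 fold change -1.04, SE 0.38, edgeR adjusted p = 0.0326), at means of 152 ± 67.5 and 312 ± 160 CPM (SD, n = 6), while 1C and 2CB lay between them at 272 ± 108 and 243 ± 103 CPM. That call was lost without 4CB replicate 6 (-0.79, adjusted p = 0.116) and in thinned counts of the genes that passed at full depth (-0.88, adjusted p = 0.161), and 8CB against 2CB was called without 2CB replicate 4 (-0.86, adjusted p = 0.0745) or 8CB replicate 6 (-0.86, adjusted p = 0.0831).

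Tet2 (ENSMUSG00000040943.12, chr3:133463679-133545139, minus strand) spanned 192 to 863 CPM in 1C with a median of 436, and 477 to 685 CPM in 8CB with a median of 620. In 2CB it spanned 207 to 690 CPM, with a median of 473, and in 4CB 264 to 771 CPM, with a median of 423. The 8CB embryos had the narrowest range, with a mean of 603 ± 73.7 CPM (SD, n = 6) beside 464 ± 245 for 1C, 479 ± 177 for 2CB and 461 ± 168 for 4CB, and no pair of stages passed the test with all embryos, while without 4CB replicate 4 the pair 8CB/4CB did (0.69, adjusted p = 0.0948). The pool difference was -0.19 (SE 0.21, edgeR adjusted p = 0.473). Tet3 (ENSMUSG00000034832.15, chr6:83362373-83459084, minus strand), the member known as the maternal oxidase of the zygote, was sparse, with 292 UMIs over the 24 embryos. Its level spanned 0 to 43.3 CPM in 1C with a median of 23.9, and 12.1 to 61.7 CPM in 8CB with a median of 22.3. In 2CB it spanned 20.3 to 70.4 CPM, with a median of 28.2, and in 4CB 0 to 59.3 CPM, with a median of 33.3. The embryos without a Tet3 UMI, 1C replicate 1 and 4CB replicate 5, could hold up to 20.6 and 22.6 CPM by counting error. Tet3 did not differ between pools (log2 fold change 0.29, SE 0.39, edgeR adjusted p = 0.564) or between any stages past the threshold.

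Dppa3 (ENSMUSG00000046323.8, chr6:122626410-122630272, plus strand) differed in the direction opposite to Dnmt1, Dnmt3b and Dnmt3l. It ranged from 340 to 954 CPM in 1C (median 715) and from 536 to 1049 CPM in 8CB (median 774). It ranged from 248 to 557 CPM in 2CB (median 367) and from 160 to 496 CPM in 4CB (median 221). Of the 12 1C and 8CB embryos, 9 lay above every 2CB and 4CB embryo, and the ranges met through 1C replicates 4 and 5, 8CB replicate 6 and the highest 2CB and 4CB embryos. The pool difference was -1.26 (SE 0.21, edgeR adjusted p = 1.83e-05). The order of stage means was 4CB (263 ± 128 CPM, SD, n = 6), 2CB (362 ± 112), 1C (676 ± 251) and 8CB (773 ± 198). The step from 2CB to 1C was called (log2 2CB over 1C of -0.91, SE 0.30, edgeR adjusted p = 0.0184), whereas 4CB against 2CB (-0.48, SE 0.30, adjusted p = 1.00) and 8CB against 1C (0.20, SE 0.30, adjusted p = 0.868) were not.

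Within the library pools, where the library was shared, no member differed past the threshold. For 8CB against 1C, edgeR called 0 of 9 members and 0% of all genes. Dnmt3a (-0.80, SE 0.34, edgeR adjusted p = 0.459), Tet1 (-0.87, SE 0.38, adjusted p = 0.469) and Dnmt3l (0.76, SE 0.33, adjusted p = 0.469) were among 550 genes with an unadjusted p below 0.05, and DESeq2 called 43 genes, none of them a member. For 4CB against 2CB, 0 of 9 members and 0.0337% of all genes were called, no member was among the 263 genes with an unadjusted p below 0.05, and DESeq2 called 9 genes, none of them a member. The log2 differences of the members ranged from -0.87 to 0.76 between 8CB and 1C and from -0.62 to 0.32 between 4CB and 2CB with all embryos. The difference of Uhrf1 between 8CB and 1C, -0.44 (SE 0.77), turned to 1.13 (SE 0.82) without 1C replicate 5 and to 3.29 (SE 0.89) without 1C replicates 4 and 5, past the threshold in neither. The difference between these within-pool differences was itself tested and passed in 0 of 9 members and 0% of genes, with Dnmt3l (-1.03, SE 0.45, adjusted p = 0.492) and Tet1 (1.19, SE 0.52, adjusted p = 0.499) below an unadjusted p of 0.05. These misses do not show that the stages were alike.

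**Figure D3:**
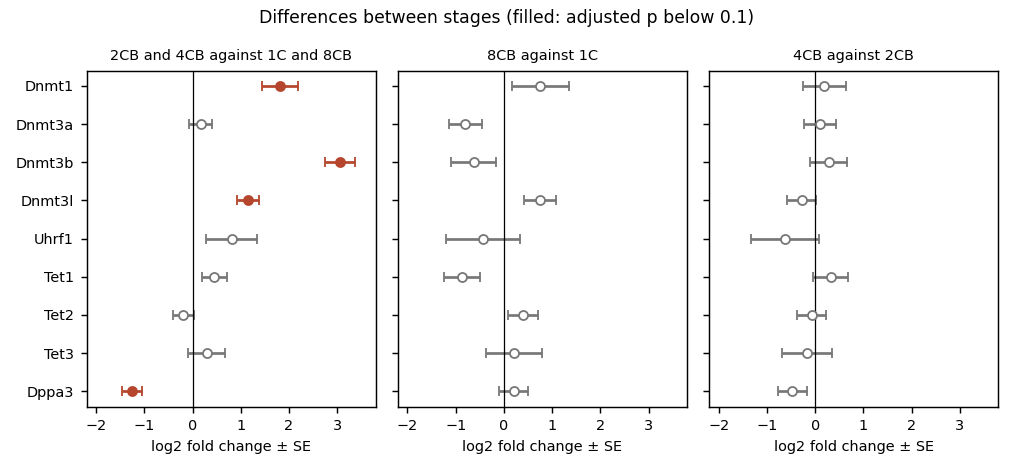
Log2 fold change with its SE (horizontal axes) for each of the 9 genes in the comparison of the library pools (left) and in the comparisons within them (middle and right), with filled points for an adjusted p below 0.1. Filled points appear on the left only, for Dnmt1, Dnmt3b and Dnmt3l above 0 and for Dppa3 below 0.

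Each of the 4 pairs of stages that cross the pools called 4 of the 9 members, against backgrounds of 41.5% of genes in the 2CB/1C pair, 40.9% in the 4CB/1C pair, 38.4% in the 8CB/2CB pair and 40.2% in the 8CB/4CB pair. Dnmt1, Dnmt3b, Dnmt3l and Dppa3 were the genes called in the first 3 of these pairs. In 8CB against 4CB, Dnmt3l missed the threshold and Tet1 was called in addition to Dnmt1 (-1.52, SE 0.52, edgeR adjusted p = 0.0236), Dnmt3b (-3.50, SE 0.45, adjusted p = 1.29e-06) and Dppa3 (1.60, SE 0.31, adjusted p = 0.000217). With no filter the Dnmt1 call in this pair was lost (-1.38, adjusted p = 0.111). The calls of Dnmt3b and Dppa3 in these pairs were kept in every alternative run. These pairs share embryos with each other. Among all 4 stages the same test called 4 of the 9 members, against 47.1% of all genes, and Tet1 (adjusted p = 0.119) and Uhrf1 (0.433) were called in addition in some alternatives, at adjusted p values down to 0.0537 and 0.000625.

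UMIs of related or overlapping genes were few beside those of the members. Dnmt3c, a rodent copy of Dnmt3b, and the pseudogenes Dnmt3a-ps1 and Dnmt3l-ps1 were listed at 0 UMIs in the 24 embryos, and Dppa3-ps had 11. The overlapping transcripts Dnmt3bos (13 UMIs), Dnmt3aos (2) and Aire (7) lie on the strand opposite to Dnmt3b, Dnmt3a and Dnmt3l, while Gm48353 (54) and 5430434F05Rik (10) lie on the same strand as Tet1 and Tet3. The strand setting of the counting was not given in the sources used here, so small numbers of UMIs may be assigned to the wrong partner.

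The genes that work with the methylation machinery were followed in lists chosen by function. Among 8 partners of maintenance methylation, 4 were tested, of which Lig1 (log2 fold change between pools 1.14, SE 0.27, edgeR adjusted p = 0.000884), a ligase that joins replicated DNA, and Pcna (0.81, SE 0.37, adjusted p = 0.0717), the replication clamp, were higher in 2CB and 4CB embryos, and Usp7 (-0.36, SE 0.17, adjusted p = 0.0787), a deubiquitinase that binds DNMT1, was lower. The mean of Usp7 was 382 CPM in 1C but 261 in 8CB, near the 248 of 2CB and the 251 of 4CB. In a list of 6 methyl-CpG readers and relatives, all 3 that were tested were higher, namely Mbd2 (1.47, SE 0.47, adjusted p = 0.0108), Mbd1 (1.47, SE 0.45, adjusted p = 0.00824) and Mbd3 (1.04, SE 0.28, adjusted p = 0.00269), a family member that in mammals does not bind methylated CpGs selectively. These genes were sparse, with summed levels of 14.1 to 130.4 CPM in 1C and 8CB embryos and 54.4 to 242 CPM in 2CB and 4CB embryos. The stage means of the 3 tested were 10.1 to 27.2 CPM in 1C and 8CB and 26.8 to 62.1 CPM in 2CB and 4CB. Genes this sparse can pass the filter on low counts through 1 pool alone, so the direction of these 3 is not independent of the filter.

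Of 6 tested genes that protect imprints, 3 of the list of 8 were higher and none was lower. Zfp57, a zinc finger protein that binds methylated imprinted regions, differed by 2.91 (SE 0.48, edgeR adjusted p = 1.07e-05), Atrx, a chromatin remodeller, by 0.57 (SE 0.20, adjusted p = 0.0193) and Trim28, the corepressor that ZFP57 recruits, by 0.42 (SE 0.16, adjusted p = 0.0316), while Nlrp2 was listed at 0 UMIs. Of the 15 base excision and deamination genes 4 were tested. Gadd45g, a stress and growth arrest gene, was higher (4.82, SE 0.57, adjusted p = 6.32e-08), and the ligase Lig3 (-1.58, SE 0.29, adjusted p = 4.08e-05) and the uracil glycosylase Ung (-1.0, SE 0.26, adjusted p = 0.00213) were lower. Gadd45g was nearly absent from 1C and 8CB embryos, at means of 0.94 and 2.16 CPM, so the size of its fold change rests on few counts. Tdg, the glycosylase that removes oxidised methylcytosine, was among the 11 that did not pass the filter.

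The 12 tested of 14 histone and CpG island cofactors went both ways, with 4 higher and 3 lower. Nsd2, a histone methyltransferase (2.39, SE 0.50, edgeR adjusted p = 0.000256), and the CpG-binding proteins Cxxc5 (1.83, SE 0.56, adjusted p = 0.00803) and Kdm2a (1.20, SE 0.32, adjusted p = 0.00237) were higher, while Kdm2b (-1.03, SE 0.33, adjusted p = 0.0113), Dmap1 (-1.01, SE 0.28, adjusted p = 0.00330) and Setd2 (-0.66, SE 0.18, adjusted p = 0.00393) were lower. Of 16 genes that supply the methyl donor or the TET cosubstrate 12 were tested, of which 5 were lower, 1 was higher and 6 were not called. Bhmt (-2.85, SE 0.38, adjusted p = 6.15e-07) and Mtr (-1.69, SE 0.37, adjusted p = 0.000407), which both remethylate homocysteine to methionine, and Shmt1 (-1.16, SE 0.37, adjusted p = 0.0106), which feeds the folate cycle, were lower, and Mtrr (0.54, SE 0.20, adjusted p = 0.0267), the reductase that reactivates MTR, was higher. Of 13 germline genes known to have methylated promoters in somatic cells 2 were tested, and Tex19.1 was lower (-1.45, SE 0.24, adjusted p = 1.43e-05). No gene of these lists was called within either pool. Of the tested genes, 3 of 4 partners, 3 of 3 readers and relatives, 3 of 6 imprint protection genes, 3 of 4 base excision genes, 7 of 12 cofactors, 6 of 12 donor genes and 1 of 2 germline genes were called, beside the background of 55.3%. The median log2 fold changes were 0.55, 1.47, 0.43, -0.67, 0.20, -0.29 and -1.02 in the same order of lists, and 0.12 over all genes tested.

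**Figure D4:**
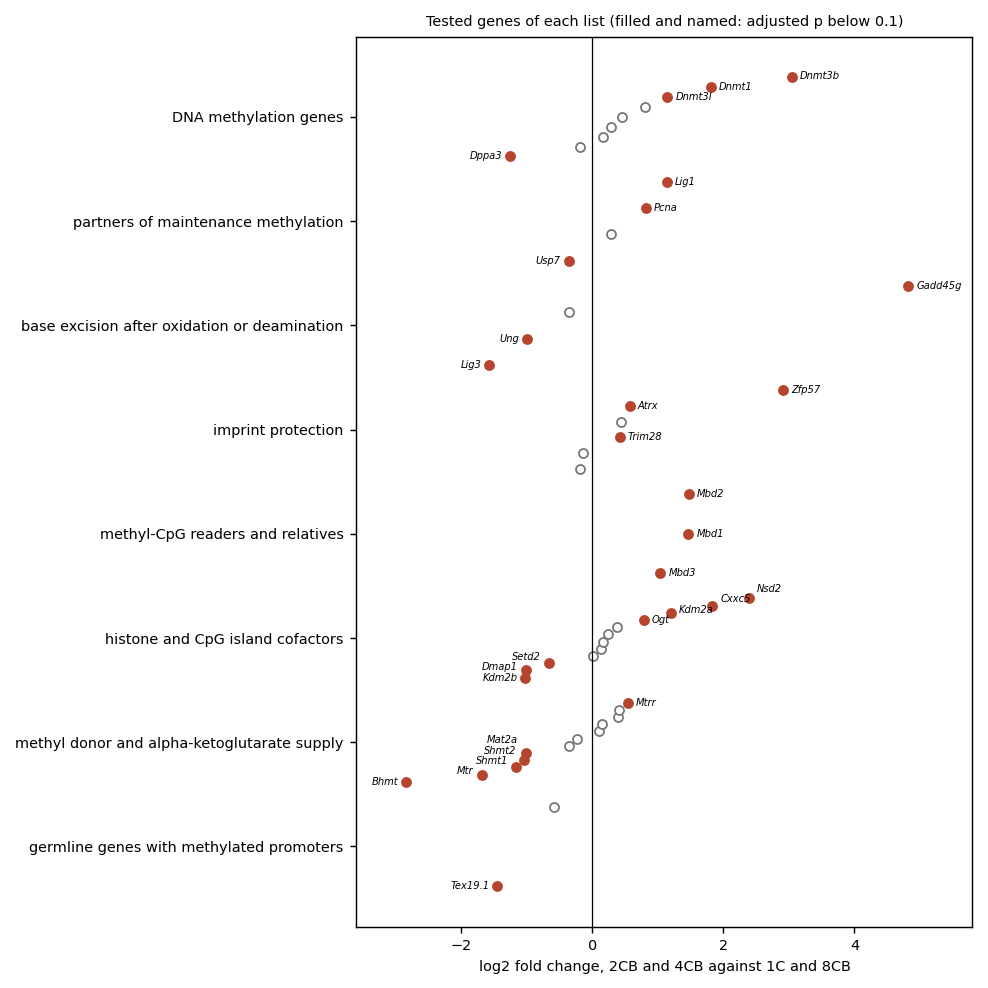
Log2 fold change between the library pools, positive where the 2CB and 4CB embryos were higher (horizontal axis), for every tested gene of the 9 members and of 7 lists of related genes (rows, points spread vertically for legibility), with filled and named points for an adjusted p below 0.1. The 3 tested methyl-CpG readers and relatives, which are sparse in 1C and 8CB embryos, lie above 0. The called methyl donor genes other than Mtrr lie below 0. Gadd45g is the farthest point, at 4.82, with means of 0.94 CPM in 1C and 2.16 CPM in 8CB.

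Markers of the lineages of a blastocyst were compared over the same division of the embryos. Of 13 trophectoderm (TE) markers, genes of the outer epithelium, 11 were tested, 9 were higher in 2CB and 4CB embryos and 1 was lower, with Elf5 (8.88, SE 1.01, edgeR adjusted p = 1.15e-07), Gata2 (7.50, SE 0.53, adjusted p = 4.54e-11) and Id2 (7.03, SE 0.36, adjusted p = 1.04e-14) at the upper end and Tfap2c (-0.74, SE 0.23, adjusted p = 0.0104) on the other side. In 1C and 8CB the means were 0 and 1.42 CPM for Elf5, 5.11 and 0 for Gata2, and 3.05 and 4.96 for Id2. The size of these large fold changes therefore rests on very few counts in that pool. The summed level of all TE markers was 583 to 1157 CPM in 1C and 8CB embryos and 3207 to 6716 CPM in 2CB and 4CB embryos, without overlap. Of 12 epiblast and ICM markers 8 were tested, of which Sox2 (1.96, SE 0.52, adjusted p = 0.00244), Tdgf1 (1.10, SE 0.49, adjusted p = 0.0671) and Utf1 (0.50, SE 0.23, adjusted p = 0.0740) were higher and 5, including Esrrb (-2.02, SE 0.31, adjusted p = 4.87e-06), Nanog (-1.49, SE 0.38, adjusted p = 0.00170) and Klf2 (-1.34, SE 0.32, adjusted p = 0.00107), were lower, at summed levels of 2107 to 4390 CPM in 1C and 8CB and 2073 to 3851 CPM in 2CB and 4CB embryos. Of 9 primitive endoderm markers 5 were tested, and Sox17 (6.40, SE 1.06, adjusted p = 2.33e-05), Lrp2 (2.04, SE 0.31, adjusted p = 3.96e-06) and Pdgfra (2.02, SE 0.57, adjusted p = 0.00397) were among 4 that were higher, while Gata6 (-0.67, SE 0.21, adjusted p = 0.00991) was lower. The summed primitive endoderm level was 761 to 1367 CPM in 1C and 8CB and 1239 to 2464 CPM in 2CB and 4CB embryos. With 10 of 11 TE, 8 of 8 epiblast and ICM and 5 of 5 primitive endoderm markers called, against 55.3% of all genes, the summed level separated the pools for the TE markers alone among these 3 lists. The part of these markers in the differences of Dnmt1, Dnmt3b, Dnmt3l and Dppa3 was not tested.

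Markers of the oocyte and of cumulus and granulosa cells were mostly below the filter. Of 9 oocyte markers only Ooep passed it and was higher in 2CB and 4CB embryos (2.04, SE 0.39, edgeR adjusted p = 8.42e-05), at means of 64.1 ± 25.4 CPM in 2CB and 16.4 ± 10.4 CPM in 1C (SD, n = 6), and the summed level stayed at or below 111 CPM in every embryo. Of 8 cumulus and granulosa markers none was tested, Ptx3, Has2, Foxl2, Fshr and Cyp19a1 were at 0 UMIs in all 24 embryos, and the summed level did not exceed 25.6 CPM.

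Within each pool, the level of each member was also set against the summed TE and the summed epiblast and ICM markers over its 12 embryos, after the stage mean was taken from each log2 level. None of these 36 correlations passed an adjusted p of 0.05. The strongest was that of Dppa3 with the TE sum in the pool of 1C and 8CB (Pearson's r = -0.784, permutation p = 0.00383, adjusted p = 0.138, Spearman's rho = -0.825, permutation p = 0.00275, adjusted p = 0.0990), and r was -0.705 without the 2 embryos farthest from the median TE sum. Dnmt3b with the epiblast and ICM sum in the pool of 2CB and 4CB gave r = -0.625 (permutation p = 0.0423, adjusted p = 0.460), which became -0.295 without the 2 farthest embryos. Other values grew on this removal. With the epiblast and ICM sum, Dnmt1 went from -0.362 to -0.714 in the pool of 2CB and 4CB. Uhrf1 went from 0.497 to 0.707 in that of 1C and 8CB, and neither passed the adjusted threshold.

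Across the 24 embryos, after removal of stage means, the gene most like Dnmt3b in its embryo-to-embryo variation was Ptbp3 (Pearson's r = 0.72), and Uhrf1 came next (0.71). Uhrf1 itself was most like Tspan9 (0.78) and Srsf10 (0.76), and Dppa3 was most like Psma6 (0.81) and Vhl (0.81). The nearest genes to the other members reached 0.66 to 0.69, with H19 (0.68) and Rnf216 (0.67) for Dnmt3a, Tgs1 (0.69) and Gm10012 (0.68) for Dnmt3l, Crebbp (0.67) and Ezh2 (0.66) for Tet1 and Tomm20 (0.68) and Wdr11 (0.68) for Tet2. These values describe 24 embryos of unequal depth and are the highest among many genes whose mean reached 50 CPM. Dnmt1 and Tet3, with mean levels of 30.2 and 29.7 CPM, were below that minimum. The summed level of all 9 members, 1709 to 2330 CPM for 1C, 1848 to 2577 for 2CB, 1924 to 2741 for 4CB and 1889 to 2311 for 8CB embryos, overlapped between all stages.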

How the data were processed

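Per the submitters' processing notes and the study's methods, the authors aligned Illumina HiSeq reads to GRCm38 with HISAT2 2.2.6 and deposited whole-number UMI counts per gene, counted with HTSeq 0.6.1 from 1 consensus read per group of duplicates sharing a UMI; they later used DESeq2 1.10.1. The annotation release was not given in the sources used here. The UMI length was not given in the sources used here. CEL-Seq2 usually has 6 bases, which allow 4096 sequences: the largest count of a member was 957, but the largest of any gene was 53029, so with that length the counts are not distinct UMIs per gene. Another 24 per-sample columns were not used. The 9 members and all lists were chosen with earlier results of these data known, and 1 listed gene is not reported here.

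Counts of 24 embryos were fitted in edgeR 4.0.16 (R 4.3.3; TMM factors 0.928 to 1.07, filterByExpr, 1 mean per stage, common biological coefficient of variation 0.442). The fit was also run on simulated data, with an outcome that is not given here. DESeq2 1.42.0, other size factors, no filter, thinning to 70941 UMIs, a replicate block and single embryos left out were alternatives; thinning on the genes that passed at full depth and leaving out 1C replicates 4 and 5 together were added after the data were seen. Embryos were treated as unpaired. Named list genes are up to 3 called each way per list, and for likeness the 2 nearest genes. Permutation tests and figures used SciPy 1.17.1 and matplotlib 3.10.9. Intervals cover counting error only.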

Additional observations from a re-analysis of the deposited data

Results flagged for a closer look

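In 5 of the 36 sets of 6 embryos (9 genes in 4 stages) the highest or lowest embryo stood farther from its nearest neighbour than Dixon's 95% limit allows, where chance gives about 1 in 20. Dnmt3b was 98.1 CPM in 8CB replicate 1, against 42.6 CPM in the next 8CB embryo. Dnmt3l was 449 CPM in 2CB replicate 4, against 229 CPM in the next, and in 8CB its lowest value, 88.4 CPM in replicate 4, lay below the next at 127 CPM. Tet1 was 282 CPM in 8CB replicate 6, the library with the fewest UMIs, against 152 CPM in the next. Tet3 was 70.4 CPM in 2CB replicate 3, against 34.5 CPM in the next.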

How the results depend on the processing

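Dnmt1, Dnmt3b, Dnmt3l and Dppa3 kept their direction and call between the pools under every alternative that tested them, and Dnmt3b and Dppa3 also did so in the pairs of stages across the pools. After thinning to 70941 UMIs, 2 members, Dnmt1 and Tet3, no longer passed the filter. Uhrf1 was called between the pools without 1C replicate 5 (1.56), without 1C replicates 4 and 5 (2.63), with no filter (0.77, adjusted p = 0.0407) and with the replicate number as a block (1.21, adjusted p = 0.0539), which changed no other call. Embryos with the same number showed little likeness, as 3 of 36 such pairs had an r over 0.1 in their deviations from stage means (mean r of -0.0156). This cannot show that the numbers carry no pairing. With single embryos left out, the members called numbered 4 to 5 between the pools and among the stages, 0 within either pool and for their difference, and 15 to 18 calls were made over the 6 pairs of stages (16 with all embryos). None of the direction changes that follow concerned a called value. On the log2 scale, Tet3 between the pools was -0.18 and Dnmt1 in 8CB against 1C was -0.48 after thinning on the genes that passed at full depth. Without 1C replicates 4 and 5, 8CB against 1C was 3.29 for Uhrf1 and -0.086 for Dppa3, and with no filter Dnmt3a in 4CB against 2CB was -0.029. With single embryos left out, Dnmt3a ran from -0.030 to 0.21 between the pools. For 8CB against 1C, Uhrf1 ran from -0.72 to 1.13 and Tet3 from -0.31 to 0.54. For 4CB against 2CB, Dnmt3a ran from -0.065 to 0.47, Dnmt3l from -0.44 to 0.037, Tet2 from -0.27 to 0.060 and Tet3 from -0.37 to 0.11. The Dnmt3b share differed by -1.97 to 2.76 percentage points for 8CB against 1C and by -0.736 to 3.44 for 4CB against 2CB, or by -0.572 in the latter after thinning. The cause of these changes was not tested. Dnmt1, Uhrf1 and Tet3 each had at least 1 embryo without a UMI at this depth.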
